A study of Mus musculus with 18 samples.

Results

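Libraries of prostate RNA from 9 mice aged 30 weeks were compared according to how much seminal vesicle transcript each held. By the study's methods the RNA came from ventral plus lateral lobes. Of the 18 libraries in the series, these 9 were split by measured values. A library was called high when Svs2, Svs5 and Pate4 together took over 1% of its reads, and low otherwise. Of the 9 libraries, 4 were high and 5 were low. The remaining 9 libraries came from mice aged 10 weeks and were read afterwards with the same threshold.

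The study examined ELAC2, the endonuclease that trims the 3′ ends of precursor tRNAs in nucleus and mitochondria. Male mice of 3 genotypes were used, on what the study's methods call a C56NL/6N background. There were 3 mice per genotype and age, none carrying the TRAMP transgene. WT mice were matched by age and litter. KO mice were homozygous for a conditional Elac2 allele whose exon 8 was removed by a Cre driven by the probasin promoter, so deletion was limited to cells in which that promoter is active. A537T mice carried a homozygous alanine to threonine substitution, made with CRISPR-Cas9, in every cell of the body. By the study's protocol, seminal vesicles and bladder were taken away before the lobes were separated. The deposited columns carry library labels and no genotype. They were assigned to groups through the table that holds them, and WT columns are those shared by both tables of an age. Libraries 1AF, 2AF and 3AF were WT, 4AF, 5AF and 6AF were KO, and 7AF, 8AF and 9AF were A537T, all at 30 weeks. The high libraries were 4AF and 6AF (KO) and 7AF and 9AF (A537T), and the low libraries were all 3 WT libraries, 5AF (KO) and 8AF (A537T). No WT library was high at 30 weeks, so the split is partly a split by genotype, and values within KO and within A537T are therefore given beside it.

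The seminal vesicles are paired androgen-dependent glands that bud from the Wolffian duct and supply most of the fluid of the ejaculate. In rodents their epithelium secretes very large amounts of a few small proteins, the seminal vesicle secretory proteins (Svs), several of which clot into the copulatory plug when transglutaminase 4 from the prostate complex cross-links them. The prostate lobes instead arise from the urogenital sinus, depend on androgen and on transcription factors such as Hoxb13 and Foxa1, and secrete other proteins, among them spermine-binding protein (Sbp) and the trypsin inhibitor Spink1. The seminal vesicles adjoin the anterior prostate lobes, which by the study's methods were not among those used for RNA sequencing.

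Because Svs2, Svs5 and Pate4 chose the groups, every difference between high and low libraries below is a description, without a test. Levels are reads per 1000000 reads (CPM), scaled with TMM factors over the 9 libraries of an age. A ratio is the mean of the 4 high libraries over the mean of the 5 low ones. An interval beside a ratio is for the ratio of reads pooled over each group, which can differ from the ratio of means. The libraries of the KO and A537T tables were normalised separately by the authors, so levels were set side by side only after whole reads had been recovered. Recovered reads of the same WT library still differed between these tables for many genes. In bulk RNA, fewer cells of a type and less RNA per cell cannot be told apart.

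The 3 marker genes took 8.26% (4AF), 6.11% (6AF), 6.94% (7AF) and 8.79% (9AF) of the reads in the high libraries. In the low libraries they had 16 reads (1AF), 3 reads (2AF), 18 reads (3AF), 5 reads (5AF) and 6 reads (8AF) among 8121433 to 11225281 reads. The largest of these shares, in 3AF, was 0.000202%, with a 95% Wilson interval from 0.000128 to 0.00032%. Where a gene had no read, 3 reads remain possible, which is at most 3.88e-05% of a library at this age. No library at 30 weeks lay between 0.000202% and 6.11%, so thresholds of 0.1% and 5% gave the same 4 high libraries. At 10 weeks the shares were graded. Both 10AF (4.56%) and 11AF (1.56%), which are WT, and the 3 KO libraries (9.06% in 13AF, 6.29% in 14AF and 9.89% in 15AF) exceeded 1%. The WT library 12AF held 0.000699%, while the A537T libraries 16AF, 17AF and 18AF held 0.116%, 0.0841% and 0.0226%. The member just above the threshold was therefore 6AF at 30 weeks and 11AF at 10 weeks, and the nearest below were 3AF and 16AF.

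**Figure D1:**
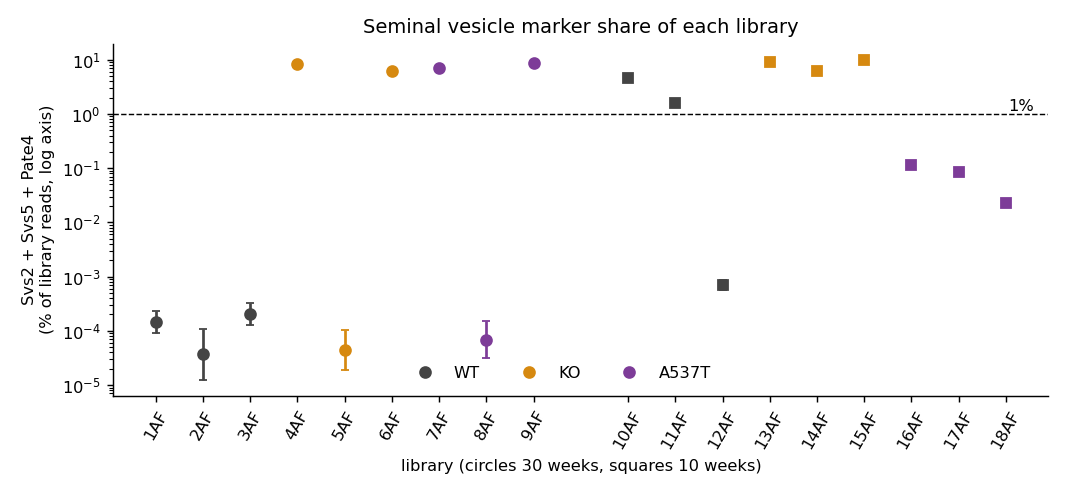
Share of reads taken by Svs2, Svs5 and Pate4 in each of the 18 libraries (log axis), with 95% Wilson intervals for counting error, coloured by genotype. At 30 weeks 4 libraries sit between 6.11 and 8.79% and 5 at or below 0.000202%, and at 10 weeks the 9 libraries spread from 0.000699 to 9.89%.

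Genotype was not part of the rule, and the marker share is given by genotype. With 3 against 3 libraries an exact permutation test cannot give a p below 0.1, so the p-values here could not pass 0.05 and say nothing either way. At 30 weeks the share was 4.79% ± 4.29 (SD, n = 3) in KO against 0.000128% ± 8.4e-05 in WT, with p = 0.3 in a 2-sided exact permutation test and 0.4 after Benjamini-Hochberg adjustment over 4 comparisons. In A537T it was 5.24% ± 4.63 (SD, n = 3; exact permutation p = 0.3, adjusted 0.4). At 10 weeks the KO share was 8.41% ± 1.885 against 2.04% ± 2.32 in WT (n = 3 each; exact permutation p = 0.1, adjusted 0.4), and the A537T share was 0.0741% ± 0.0473 against 1.96% ± 2.23 in the WT columns of its own table (n = 3 each; exact permutation p = 0.4, adjusted 0.4). Within KO and within A537T at 30 weeks the share differed more between mice of the same genotype than the genotype means did.

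Elac2 itself (chromosome 11, 64979038 to 65002069 of GRCm38) was lower in the high libraries without overlap. Its levels were 16.6 (1AF), 17.1 (2AF), 21.65 (3AF), 16.9 (5AF) and 20.9 (8AF) CPM in the low libraries and 11.01 (4AF), 13.7 (6AF), 13.5 (7AF) and 12.7 (9AF) in the high ones. The KO library 5AF lay within the WT range, and the A537T libraries 7AF and 9AF lay below all WT libraries. Gene-level reads cover all exons, so they do not measure the loss of exon 8. At 10 weeks Elac2 was at 15.2 to 19.8 CPM in WT, 13.6 to 14.5 in KO and 18.75 to 20.2 in A537T.

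A run of Svs genes lies on chromosome 2. Svs2, Svs3b, Svs4, Svs3a, Svs6 and Svs5 follow one another from 164235929 to 164334396 (GRCm38), directly beside the whey acidic protein gene Wfdc15b (164214454 to 164221660, minus strand). These 7 neighbours were all at least 4-fold higher in the high libraries without overlap. Within 250000 bases on either side of Svs2 and Svs5 there were 26 protein-coding genes, of which 15 passed the filter on low reads. Of these, 7 were at least 4-fold higher and 2 were lower without overlap, beside 2.43% and 9.97% of all tested genes. Svs2 and Svs5 are among the 7 and made the groups, and the window was placed on them. The count therefore adds nothing to the split. Slpi, next beyond Svs5, stayed below the filter at 0.651 to 2.699 CPM in the high and at most 0.327 in the low libraries, and the syndecan gene Sdc4 farther out was lower in the high libraries (89.4 to 113 against 133 to 181). The higher levels thus ran over 7 consecutive protein-coding genes that passed the filter, and Slpi beyond them was also higher, though below the filter.

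Bases upstream of these 7 genes are shown because the genes separated the libraries together and stand side by side. Starts are those of RefSeq on GRCm38.p6, and each window is the 250 bases ending at the base before the start, 5′ to 3′ on the gene's own strand. The gene positions above are those of GENCODE, whose start lies farther upstream in 3 of the 7 genes, so that 125 bases of the Svs2 window, 152 of the Svs4 window and 25 of the Svs5 window lie inside the GENCODE gene. For Svs2 and Svs4 only the 125 and 98 bases before the GENCODE start are printed. Capitals mark AGAACA or its reverse complement TGTTCT, the core half-site letters of steroid receptor elements, and TATAAA or its reverse complement TTTATA. No overlap between the motifs was found.

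Wfdc15b (chr2:164221664-164221913, minus strand): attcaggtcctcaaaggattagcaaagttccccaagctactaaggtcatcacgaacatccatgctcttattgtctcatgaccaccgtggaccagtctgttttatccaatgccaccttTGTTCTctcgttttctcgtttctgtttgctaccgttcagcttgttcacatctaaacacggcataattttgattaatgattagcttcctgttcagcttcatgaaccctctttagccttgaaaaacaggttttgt
Svs2 (chr2:164238467-164238591, minus strand): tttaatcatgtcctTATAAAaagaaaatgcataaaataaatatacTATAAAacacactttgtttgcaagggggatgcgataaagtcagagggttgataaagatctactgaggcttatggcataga
Svs3b (chr2:164256644-164256893, minus strand): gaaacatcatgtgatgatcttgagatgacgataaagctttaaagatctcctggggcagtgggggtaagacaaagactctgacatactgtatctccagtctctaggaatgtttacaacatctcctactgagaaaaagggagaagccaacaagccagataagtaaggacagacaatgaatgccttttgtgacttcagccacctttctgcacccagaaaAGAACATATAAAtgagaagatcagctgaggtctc
Svs4 (chr2:164278460-164278557, minus strand): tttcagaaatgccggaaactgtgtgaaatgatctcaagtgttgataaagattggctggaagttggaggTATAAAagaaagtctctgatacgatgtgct
Svs3a (chr2:164289017-164289266, plus strand): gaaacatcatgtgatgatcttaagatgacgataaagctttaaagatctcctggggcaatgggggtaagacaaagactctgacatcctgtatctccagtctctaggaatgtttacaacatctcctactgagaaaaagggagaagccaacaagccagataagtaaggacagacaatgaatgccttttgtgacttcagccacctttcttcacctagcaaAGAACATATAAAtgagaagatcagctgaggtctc
Svs6 (chr2:164316501-164316750, plus strand): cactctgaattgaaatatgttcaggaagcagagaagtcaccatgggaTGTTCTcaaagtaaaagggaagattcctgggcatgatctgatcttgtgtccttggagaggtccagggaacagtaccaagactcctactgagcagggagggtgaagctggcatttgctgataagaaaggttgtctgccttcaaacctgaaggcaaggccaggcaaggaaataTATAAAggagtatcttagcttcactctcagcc
Svs5 (chr2:164332515-164332764, plus strand): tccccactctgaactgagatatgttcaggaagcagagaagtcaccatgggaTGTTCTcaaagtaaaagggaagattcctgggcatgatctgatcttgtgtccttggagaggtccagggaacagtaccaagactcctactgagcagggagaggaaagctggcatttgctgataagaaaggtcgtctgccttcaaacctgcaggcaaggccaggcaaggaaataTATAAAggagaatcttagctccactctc

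TATAAA ended 23 bases before the RefSeq start of Svs3b, Svs3a and Svs5 and 27 bases before that of Svs6. In Svs5 the GENCODE start lies within these letters. The full Svs4 window held 4 matches, of which 1 ended 25 bases before the GENCODE start and another 23 bases before the RefSeq start. In Svs2 the 2 matches began 111 and 80 bases before the GENCODE start, or 236 and 205 bases before the RefSeq start, and in Wfdc15b these letters were not in the window. AGAACA or TGTTCT stood directly against TATAAA in Svs3a and Svs3b, 199 and 203 bases before the RefSeq start of Svs5 and Svs6 and 133 bases before that of Wfdc15b, and these letters were not in the windows of Svs2 and Svs4. Over the first listed start of each gene, 16.2% of 27025 windows of this length held AGAACA in either orientation and 3504 held TATAAA. Among 243 genes at least 4-fold higher in the high libraries that had a listed start the shares were 12.3% and 11.1%, and among 10560 tested genes 10.8% and 6.59%. The full Svs3a and Svs3b windows were identical at 97.6% of aligned positions and those of Svs5 and Svs6 at 93.3%, while the window of Svs2 was 45.6 to 51.2% identical to the other 6. Reads of Svs3a and Svs3b may have been split between these near-identical copies by the quantification, so their separate levels are uncertain. The table holds no entry for Pate4, which lies on chromosome 9 (35607093 to 35611941).

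Svs2, the major clotting protein of seminal vesicle secretion, was the most abundant of them. Its levels were 55240 (4AF), 39140 (6AF), 42990 (7AF) and 55150 (9AF) CPM in the high libraries and at 0.356 (1AF), 0.129 (2AF), 0.994 (3AF), 0.245 (5AF) and 0.32 (8AF) in the low ones. Svs5 was at 21860, 17400, 16000 and 22740 in the same 4 high libraries and at 0.129 to 0.994 in the low ones. Pate4, a small secreted protein of the Ly6 family, was at 10810, 8256, 9165 and 13730 and had 4 reads in all 5 low libraries. The 4 high libraries thus lay within a factor of 2 of each other for all 3 markers, and far above every low library.

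Outside the markers, Svs4 was at 2492 (4AF), 1951 (6AF), 2374 (7AF) and 3213 (9AF) CPM against at most 0.801 in a low library. Svs1, a copper amine oxidase-like protein, was at 109.5 and 82.6 in the KO libraries 4AF and 6AF and at 187 and 240 in the A537T libraries 7AF and 9AF. Svs6 was at 127.8, 94.95, 162 and 218, Svs3a at 58.2, 49.1, 78.4 and 105, and Svs3b at 67.7, 50.4, 103 and 132 in the same order. For all 4 of these genes both A537T libraries lay above both KO libraries. Sva was at 11.85 to 56.0 and the trypsin inhibitor-like Spinkl at 8.73 to 44.8 in the high libraries, with at most 0.178 and 0.552 in the low ones.

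In all, 11 of the 12 list members were higher in the 4 high libraries without overlap, all 11 by at least 4-fold, beside 11.5% and 2.43% of all 14836 tested genes. The list median was a log2 ratio of 10.78 against -0.01 over all tested genes. All 12 passed the filter on low reads. Since the list was chosen for the tissue whose markers made the groups, its count adds nothing to the split. The smallest ratio among the 11 was that of Ceacam10, at 23.6 to 59.6 CPM in the high libraries, 7.2 and 5.52 in the WT libraries 2AF and 3AF and 0.534 to 0.747 in the other 3 low ones.

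The exception was the gene listed as Sslp1, which the files hold as A630095E13Rik. It was at 185 (2AF) and 123 (3AF) CPM in 2 WT libraries with almost no Svs2, had no read in 1AF, 5AF and 8AF, and was at 16.1 (4AF), 14.3 (6AF), 5.17 (7AF) and 7.1 (9AF) in the high libraries. At 10 weeks it was at 426 (16AF), 459 (17AF) and 495.5 (18AF) in the A537T libraries, where Svs2 was at 26.4 to 64.8, and had no read in 12AF. Across all genotypes it therefore did not follow the markers at either age. Within KO and within A537T among the older mice, the high libraries did lie above the low library. With 0.5 CPM added, the log2 ratios were 4.97 in KO and 3.73 in A537T. In WT at 10 weeks it had the order of the markers, at 326 (10AF) and 30.6 (11AF) CPM with no read in 12AF. Within KO and within A537T at 10 weeks it did not have that order.

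**Figure D2:**
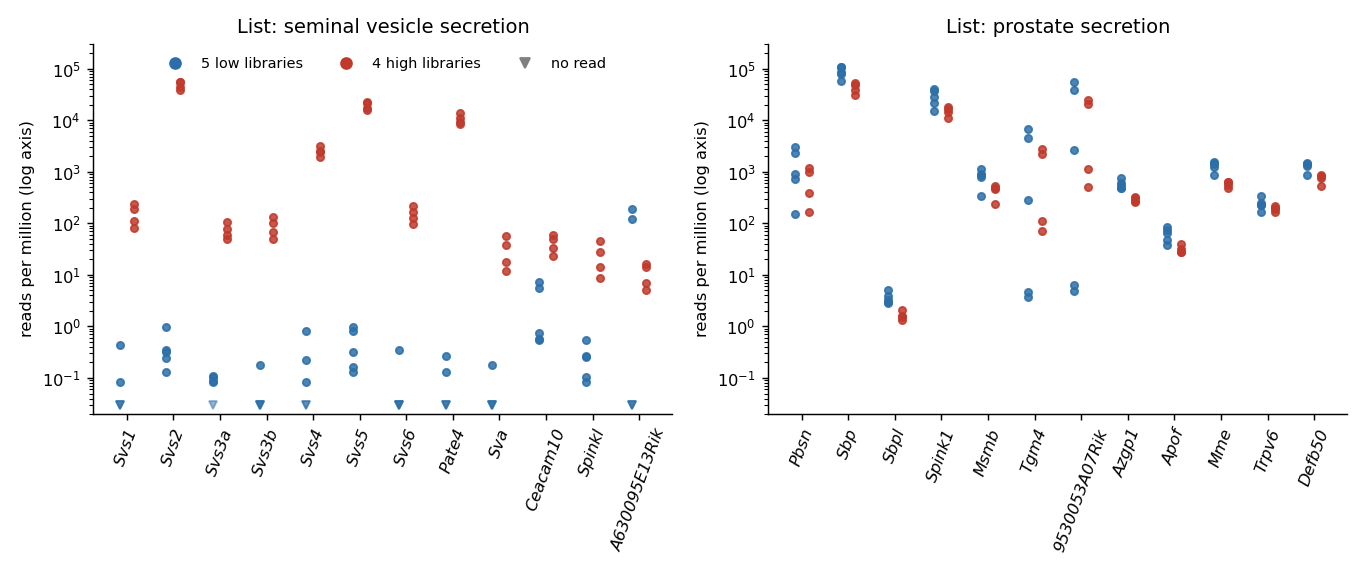
Levels of the 12 listed seminal vesicle secretory genes and the 12 listed prostate secretory genes in CPM (log axis), 1 point per library at 30 weeks, blue for the 5 low and red for the 4 high libraries, with triangles for no read. For 11 seminal vesicle genes all red points lie above all blue ones, and for Tgm4, 9530053A07Rik and Pbsn the colours are mixed.

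Across all genes with a mean of at least 10 normalised reads, 1703 of 14836 were higher in the 4 high libraries without overlap (11.5%) and 1479 were lower (9.97%). Of the higher genes 780 had a ratio of at least 2, 361 of at least 4 (2.43%), 127 of at least 16 and 65 of at least 64, while 118 of the lower genes were at least 2-fold lower, 6 at least 3-fold lower and 0 (0%) at least 4-fold lower. With libraries scaled to their total reads, the median of all genes shifted to a log2 ratio of -0.10 and the share of higher genes among those without overlap was 40.2% in place of 53.5%. Scaled to total reads without the seminal vesicle list, that share was 62.0%, so differences near that size depend on the scaling. The 361 genes took 7.70 to 10.98% of the reads in the high libraries and 0.125 to 0.167% in the low ones. Without the 11 listed secretory genes the other 350 took 1.37 to 1.795% against 0.1245 to 0.166%.

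**Figure D3:**
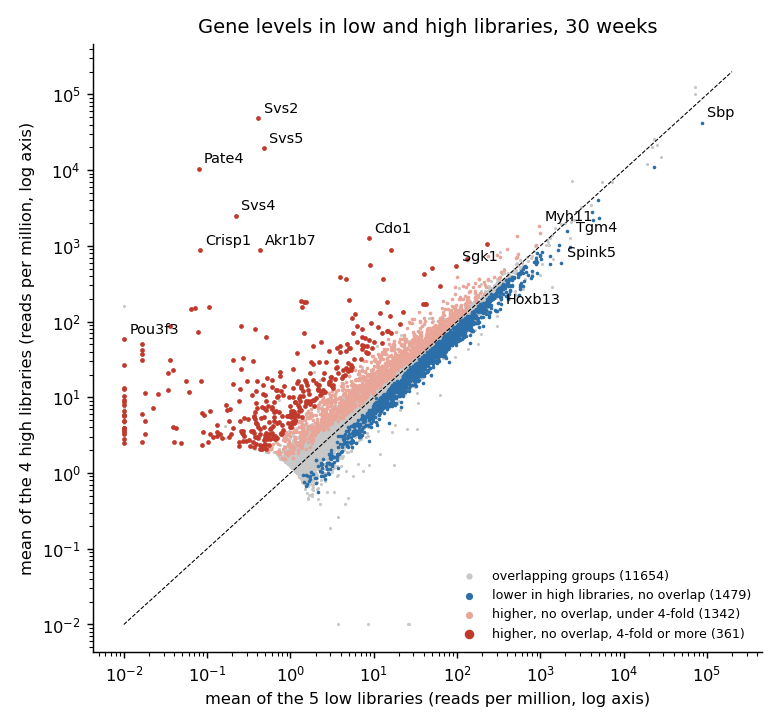
Mean level of each of 14836 genes in the 5 low libraries (horizontal) and the 4 high libraries (vertical), in CPM on log axes, with means under the lower axis limit drawn at that limit. Genes without overlap reach far above the diagonal (361 by at least 4-fold) and stay close below it (0 by at least 4-fold).

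Outside the secretory list the largest ratio among genes with at least 20 CPM was that of Crisp1 (10690, interval 3703 to 26610), a secreted cysteine-rich protein known from the epididymis. It was at 1008 (4AF), 763.5 (6AF), 734 (7AF) and 995 (9AF) CPM, with 5 reads in the low libraries, all in 5AF. Akr1b7, an aldo-keto reductase first described in the vas deferens, was at 1241 (4AF) and 979 (6AF) in KO and 565 (7AF) and 743 (9AF) in A537T, against at most 1.23 in a low library. Serpina1f, a serpin, was at 198, 140, 103 and 148 and had 3 reads in the low libraries (ratio 2302, with a 95% interval for counting error in the low libraries from 821 to 11640). For Akr1b7 both KO libraries thus lay above both A537T libraries, the reverse of Svs1, Svs3a, Svs3b and Svs6.

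Because Crisp1 and Akr1b7 are also genes of the epididymis and vas deferens, the list of that tract was read as a whole. Of its 9 genes only Crisp1 and Akr1b7 were higher, 2 of the 3 that passed the filter, beside 11.5% of all tested genes. Lcn8, Lcn9 and Spag11b, which define epididymal segments, had 0 reads in all 9 libraries, Lcn5 had 1 read and Rnase10 had 4. Adam7 overlapped between the groups, at 16.1 to 21.2 in the high and 11.7 to 82.5 CPM in the low libraries.

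The other genes of largest ratio were transcription factors, antimicrobial and secreted proteins. Pou3f3, a POU-domain factor of the urogenital tract and brain, had no read in any low library and 64.7 (4AF), 47.3 (6AF), 54.0 (7AF) and 69.6 (9AF) CPM in the high ones, at least 974.8-fold higher against a floor of 3 reads over the low group. Emx2, a homeobox factor needed for Wolffian duct derivatives, was at 50.9, 28.9, 36.8 and 51.3 with 1 read in the low libraries (ratio 2564, interval 373 to 81990). D730048I06Rik had no read in the low and 20.7 to 35.6 in the high libraries, at least 448-fold higher. Foxi1, a forkhead factor of ion-transporting epithelial cells, was at 18.7 to 28.5 with 2 reads in the low libraries (ratio 598.2, interval 157 to 4676).

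Wfdc15b was at 40 to 61.9 CPM in the high libraries with 1 read in the low ones (ratio 3062, interval 449 to 98840). Cuzd1, a secreted CUB and zona pellucida domain protein, was at 28.8 to 49.55 (ratio 2306, interval 337.5 to 74270) and the carboxylesterase Ces5a at 22.5 to 37.7 (ratio 1896, interval 273 to 60110), each with 1 read in the low libraries. Lpo, the lactoperoxidase gene, was at 16.9 to 32.1 with 2 reads (ratio 619, interval 143 to 4272). These ratios rest on so few reads in the low libraries that their order among each other is not fixed.

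The 5 genes whose log2 levels over the 9 libraries followed the summed markers most closely were Svs4 (Pearson r = 0.999), Pou3f3 (0.999), Crisp1 (0.998), Wfdc15b (0.998) and Nr4a3 (0.998). The 9 points fall into 2 clusters, so these values describe the split and no relation within it. Nr4a3, an immediate-early nuclear receptor, was at 55.7 to 89.8 CPM in the high and 1.06 to 1.6 in the low libraries.

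Among developmental regulators of the Wolffian duct, 4 of 12 listed genes were higher without overlap and none lower (beside 11.5% and 9.97% of all genes), 11 passed the filter, and the median log2 ratio was 0.74. Pax2 was at 6.47 (4AF), 5.34 (6AF), 5.51 (7AF) and 5.75 (9AF) CPM and Pax8 at 12.7, 9.12, 5.74 and 9.3, and both paired-box factors had no read in any of the 5 low libraries, at least 95.5-fold and 152-fold higher. Hoxd9 was at 5.86 to 11.1 against 0.107 to 0.9, and Gata3 at 53.8 to 80.9 against 19.6 to 46.1. Lhx1 had no read in any library. Hoxa9, Hoxa10 and Hoxa11, which pattern the duct along its length, overlapped between the groups, as did Gata2, at 42.7 to 61.5 in the high libraries and 3.44 (5AF) to 78.5 (2AF) in the low ones.

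Several abundant genes outside the lists also separated the groups, and they are named after their values were seen. Cdo1, cysteine dioxygenase of taurine synthesis, was at 1342 (4AF), 1044 (6AF), 1132 (7AF) and 1534 (9AF) CPM against 4.54 to 16.9. Pfkfb3, which makes the allosteric activator of glycolysis, was at 713 to 1095 against 10.1 to 19.15, the urokinase gene Plau at 286 to 431 against 3.47 to 5.33, and the beta-defensin gene Defb42 at 332 to 461 against 0 to 13.75. Cd52, a surface glycopeptide of male tract epithelia and lymphocytes, was at 440 to 734 against 1.78 to 17.35, and its cell source was not tested. The prostaglandin synthase gene Ptgs2 was at 130 to 256 against 0.9 to 1.99, the epithelial factor Elf5 at 128.2 to 184.6 against 0.533 to 2.44, the fatty acid hydroxylase gene Cyp4a12a at 73.3 to 112 against 0 to 0.643, and cyclin D1 (Ccnd1) at 302 to 585 against 38.55 to 42.8. In each of these genes the lowest high library lay above the highest low one by several fold.

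Prostate genes leaned lower in the high libraries. Of 12 listed prostate secretory genes 5 were lower without overlap and none higher, beside 9.97% and 11.5% of all genes, with a median log2 ratio of -0.93, and none reached 4-fold. Sbp was at 105700 (1AF), 58580 (2AF), 77180 (3AF), 87530 (5AF) and 106500 (8AF) CPM in the low libraries and at 37660 (4AF), 49040 (6AF), 52280 (7AF) and 30680 (9AF) in the high ones. Mme, the membrane peptidase neprilysin, was at 872 to 1547 in the low and 483 to 637 in the high libraries, Azgp1, zinc-alpha-2-glycoprotein, at 475 to 744 against 254 to 330, the beta-defensin Defb50 at 870 to 1486 against 521 to 849, and Sbpl at 2.83 to 5.01 against 1.35 to 2.08. Sbp and Sbpl are similar genes near each other on chromosome 17, so a small part of their reads may be shared.

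Spink1 was at 14720 (2AF) to 41010 (5AF) in the low and 10860 (4AF) to 17720 (7AF) in the high libraries, which overlap. Msmb, the microseminoprotein gene, overlapped through 5AF alone, at 339 in 5AF and 791 to 1130 in the other low libraries against 241 to 519. Apof (38.1 to 83.6 against 28.0 to 39.9) and the calcium channel gene Trpv6 (162 to 337 against 163 to 214) overlapped as well. Most of the listed prostate genes therefore leaned the same way, but only 5 separated the libraries.

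Tgm4, the transglutaminase that cross-links Svs proteins, and 9530053A07Rik did not follow the split. Tgm4 was at 4.63 (1AF), 6607 (2AF), 4489 (3AF), 3.68 (5AF) and 283 (8AF) CPM in the low libraries and at 2743 (4AF), 2221 (6AF), 113 (7AF) and 70.7 (9AF) in the high ones. 9530053A07Rik was at 6.32, 55340, 38030, 4.91 and 2632 in the low and at 25050, 20840, 1114 and 501.4 in the high libraries, so the 9 libraries had the same order for both genes. Probasin (Pbsn), whose promoter drives the Cre of the KO line, was at 151 (5AF) to 3007 (2AF) in the low and 166 (9AF) to 1179 (4AF) in the high libraries. At 30 weeks libraries with abundant Tgm4 were found among the high and the low ones, and the 2 libraries nearly without it, 1AF and 5AF, were low.

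Some transcription factors of the prostate epithelium split with the secretory genes. Hoxb13 was at 375 (1AF), 275 (2AF), 318 (3AF), 355 (5AF) and 321 (8AF) CPM in the low libraries and at 106 (4AF), 164 (6AF), 186 (7AF) and 129 (9AF) in the high ones. Foxa1 was at 124 to 162 against 62.8 to 94.6, Sox9 at 54.4 to 60 against 32.9 to 41.8, Spdef at 46.1 to 74.25 against 36.3 to 41.7, and Creb3l4 at 13.4 to 21.6 against 8.39 to 10.6. Of the 12 listed regulators these 5 were lower without overlap (9.97% of all genes) and 1, Grhl2, was higher (11.5% of all genes), at 112 to 133.5 against 84.7 to 95.9.

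Among 12 listed androgen-regulated genes 2 were higher and 4 lower without overlap, beside 11.5% and 9.97% of all genes. Sgk1, a steroid-induced kinase, was at 605 (4AF), 484 (6AF), 470 (7AF) and 591 (9AF) against 62.9 to 123 CPM, and Camkk2 at 19.15 to 29.6 against 9.77 to 13.7. Fkbp5, a chaperone of steroid receptors, was lower at 263 to 339 against 365 to 461, as were Zbtb16 (112 to 135 against 136 to 167), Abcc4 (27.9 to 39.7 against 48.8 to 62.5) and Elovl7 (7.42 to 12.5 against 13.01 to 19.9).

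Among genes with at least 20 CPM, the 20 lower genes of smallest ratio were led by Spink5, a multidomain serine protease inhibitor. It was at 1524 (1AF), 1076 (2AF), 1264 (3AF), 3181 (5AF) and 1870 (8AF) CPM in the low and at 256 (4AF), 913 (6AF), 788 (7AF) and 428 (9AF) in the high libraries. The anion exchanger gene Slc26a4 was at 96.65 to 183 against 35.4 to 64.3, the receptor gene Gpr83 at 51.9 to 127.9 against 16.65 to 42.5, the stress-response gene Nupr1 at 380 to 871 against 173 to 286.5, and Pigr, which carries polymeric immunoglobulin across epithelia, at 1857 to 2815 against 563 to 1257. 9530002B09Rik was at 3892 to 6129 against 1913 to 2861 and the metalloprotease inhibitor gene Timp4 at 146 to 225 against 64.8 to 98.8. The ratios of Klf8, Rimklb, Gucy2g, B4galnt2, Nxpe4, Syt7, Gm47357, Yeats2, Paqr3, Zfp703 and Fam84a, together with Mme and Hoxb13 above, were 0.358 (Klf8) to 0.464 (Fam84a). Spink5 had the smallest ratio of these 20, at 0.334, and the 6 genes at least 3-fold lower were all less abundant than 20 CPM. None of the 20 was absent from a high library.

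Genes of protein secretion were lower in part. Of 22 listed genes 7 were lower without overlap and none higher, beside 9.97% and 11.5% of all genes. The chaperone gene Hspa5 was at 905 to 1180 in the low and 812 to 879 CPM in the high libraries, Calr at 885 to 1078 against 649 to 800, and Pdia6 at 547 to 759 against 365 to 522. Xbp1, the transcription factor of the secretory programme, overlapped at 149.5 to 181 against 159 to 170.

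Of 11 genes of polyamine metabolism, whose product spermine Sbp binds, 5 were lower and 1 higher without overlap, beside 9.97% and 11.5% of all genes. Amd1, which makes the aminopropyl donor, was at 892 (1AF), 740 (2AF), 783.5 (3AF), 757 (5AF) and 845 (8AF) against 373 (4AF), 459 (6AF), 530 (7AF) and 486 (9AF). Srm, Paox, Oaz1 and Azin1 were the other lower genes, and spermine oxidase (Smox) was higher at 14.45 to 18.8 against 5.075 to 8.87. Odc1 overlapped, at 184 to 283 in the low and 160 to 186 in the high libraries. Of 13 genes of citrate and zinc handling, the citrate carrier Slc25a1, the zinc importer Slc39a1 and the metallothioneins Mt1 (186 to 318 against 98.5 to 167) and Mt2 were lower (9.97% of all genes), and the higher ones (11.5% of all genes) included Got2, with a log2 ratio of 0.38. None of the 11 mitochondrial mRNA entries separated the groups.

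Marker lists of other cell types were read in the same libraries. Smooth muscle genes were higher in 7 of 10 cases without overlap (11.5% of all genes), with a summed level of 3705 to 4225 CPM in the high and 1998 to 2996 in the low libraries. Myh11, the smooth muscle myosin, was at 1876 (4AF), 1632 (6AF), 1696 (7AF) and 2020 (9AF) against 806 (1AF), 1219 (2AF), 1118 (3AF), 898 (5AF) and 766 (8AF), and Actg2 was at 152 to 199 against 49.1 to 115. Their part in the differences above was not tested. For the lists that follow, 11.5% of all genes were higher and 9.97% lower without overlap. Krt18, Krt19, Cdh1 and Cldn4 of 8 luminal epithelial genes were lower, and the 8 genes were at a summed 1135 to 1289 against 1407 to 1655. Of the 6 basal genes Krt14 and Trp63 were higher (20.55 to 30.0 against 11.6 to 14.5 for Trp63) and Dst was lower.

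Of 8 fibroblast genes Lum and Dpt were higher and 6 overlapped, beside 11.5% of all genes higher. Bladder urothelium was read from 6 genes, of which 2 passed the filter. Upk1a was lower at 49.1 to 77.9 against 86.4 to 145, and Upk1b overlapped. Upk2, below the filter, was at 0.612 to 4.403 against 0.164 to 0.514, the opposite direction to Upk1a, and Upk3a, which defines umbrella cells, had no read in the low libraries and 2.2 (4AF), 2.34 (6AF), 0.113 (7AF) and 0 (9AF) CPM in the high ones. Summed adipocyte genes ranged from 21.2 (4AF) to 365 (9AF) in the high and from 6.77 (1AF) to 282 (5AF) in the low libraries, and B and plasma cell genes from 145.5 (6AF) to 476 (7AF) and from 117 (1AF) to 1034 (8AF). Skeletal muscle genes were at a summed 135 to 178 in the high and 78 to 299 in the low libraries, with Acta1 the only member higher without overlap. None of the endothelial, adipocyte, plasma and B cell, macrophage, T cell or mitochondrial lists had a member without overlap among genes that passed the filter. Of 6 T cell genes only 1 passed it, and of 11 plasma and B cell genes 5 did.

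The split was then read inside each mutant genotype, where the libraries compared came from a single deposited table and no library was used in both. Ratios here are log2 of means with 0.5 CPM added. Of the 361 genes at least 4-fold higher in the comparison of all 9 libraries, 299 were at least 4-fold higher in KO (4AF and 6AF over 5AF), 297 in A537T (7AF and 9AF over 8AF) and 257 in both, and 353 were at least 2-fold higher in both. Their median log2 ratio was 2.92 in KO and 2.88 in A537T. The 1479 lower genes had medians of -0.45 and -0.43. Over all 14836 genes the medians were close to 0, and the ratios of both genotypes had Pearson r = 0.633 and Spearman rho = 0.484, or r = 0.353 without the 361 genes. The genes are not independent replicates, and the groups of all 9 libraries already contain these libraries. Each of the 361 genes was called because every high library exceeded every low one, 5AF and 8AF included. Its direction within each genotype was thus fixed beforehand, as was that of the 1479 lower genes. These counts and medians therefore add nothing to the split, and shares of all genes at the same cut-offs are not given.

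**Figure D4:**
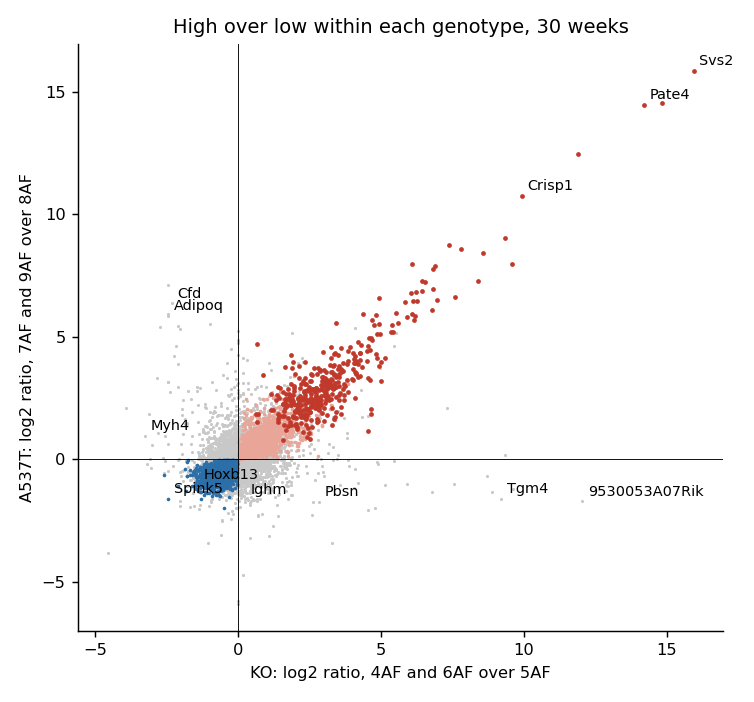
Log2 ratio of high over low libraries within KO (horizontal, 4AF and 6AF over 5AF) and within A537T (vertical, 7AF and 9AF over 8AF) for 14836 genes at 30 weeks, red for genes at least 4-fold higher, pink for other higher and blue for lower genes without overlap, grey for the rest. Seminal vesicle genes lie along the diagonal up to 15.95, while Tgm4, 9530053A07Rik and Pbsn lie far to the right at ratios below 0 in A537T.

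Prostate secretory genes differed between the genotypes in this reading. Sbp was lower in the high libraries by log2 ratios of -1.01 in KO and -1.36 in A537T and Hoxb13 by -1.39 and -1.02, whereas Tgm4 was 9.21 in KO and -1.62 in A537T, 9530053A07Rik 12.05 and -1.70, and Pbsn 2.835 and -1.74. The KO low library 5AF had almost no Tgm4 or 9530053A07Rik, which sets the KO ratios. With 1 low library in each genotype these directions have no replicate check.

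The composition of the seminal vesicle signal was compared between libraries by reading each gene against Svs2 in the same library. Such a ratio carries no correction for gene length and is compared only between libraries. In the 4 high libraries at 30 weeks Svs5 was at 37.2 to 44.5% of Svs2 reads, Pate4 at 19.6 to 24.9%, Cdo1 at 2.43 to 2.78% and Pou3f3 at 0.117 to 0.126%. Svs1 was at 0.198% and 0.211% in the KO libraries 4AF and 6AF and at 0.436% in each of the A537T libraries 7AF and 9AF. Sva differed most of the higher listed genes apart from Spinkl, at 0.0319% and 0.0303% in KO against 0.0895% and 0.102% in A537T. Akr1b7 was at 2.25% and 2.50% in KO against 1.315% and 1.35% in A537T. For Svs1, Sva and Akr1b7 the high libraries thus fell into pairs by genotype, with 2 libraries each and no test.

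At 10 weeks the 5 libraries above 1% were close to each other in Svs5 (32.8 to 48.25% of Svs2 reads), Pate4 (20.2 to 22.9%), Cdo1 (2.47 to 2.96%) and Pou3f3 (0.104 to 0.125%), and differed widely in other genes. In the WT library 10AF Svs1, Svs3a, Svs6 and Sva were at 0.0663%, 0.0225%, 0.04545% and 0.00901%, and in the WT library 11AF at 2.38%, 1.151%, 1.85% and 0.288%. Akr1b7 went the other way, at 1.56% in 10AF and 0.0860% in 11AF, as did Crisp1 (0.746% and 0.231%) and Serpina1f (0.214% and 0.0244%). The 3 KO libraries lay between them for Svs1 (0.417 to 0.505%) and Sva (0.0577 to 0.074%). Over the 9 libraries above 1% the highest value exceeded the lowest 35.9-fold for Svs1, 51.1-fold for Svs3a, 29.1-fold for Akr1b7, 1.27-fold for Pate4 and 1.21-fold for Pou3f3. The markers, Cdo1 and Pou3f3 thus varied little against Svs2, while Svs1, Svs3a, Svs6, Sva and Akr1b7 varied widely.

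**Figure D5:**
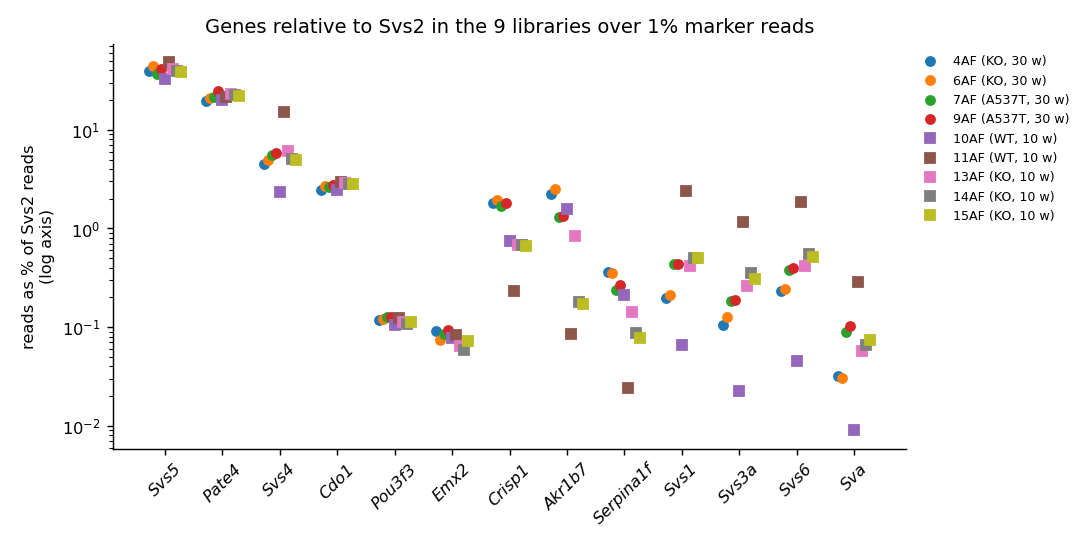
Reads of 13 genes as a percentage of Svs2 reads (log axis) in the 9 libraries with over 1% marker reads, circles at 30 weeks and squares at 10 weeks, 1 colour per library. Svs5, Pate4, Cdo1 and Pou3f3 form tight groups, and Svs1, Svs3a, Svs6, Sva, Akr1b7 and Serpina1f spread, with 10AF and 11AF at opposite ends for Svs1.

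The 10-week A537T libraries showed another composition at low abundance. Svs2 was at 64.8 (16AF), 47.4 (17AF) and 26.4 (18AF) CPM, whereas Svs5 was at 924, 653 and 156, Svs4 at 766, 515 and 137, and Pate4 at 213.5, 158 and 27.7. Svs5 reads were thus 1425%, 1378% and 591% of Svs2 reads, against at most 48.25% in any library above the threshold. Spinkl was at 89.7, 63.6 and 20.9, as high as in the libraries above the threshold (4.92 to 80.6 at 10 weeks). Crisp1 was at 0.124, 0.336 and 0.478 and Akr1b7 at 0.619, 0.896 and 0.478 CPM in these 3 libraries. In 16AF, 17AF and 18AF Svs5 thus exceeded Svs2 in reads, whereas in every library above 1% Svs2 exceeded Svs5.

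The genes that marked the split at 30 weeks were last read in the 10-week libraries, which the rule had not used but which were again grouped by marker reads. Of the 361 genes 337 passed the filter at 10 weeks. In WT, 10AF and 11AF were both above 12AF for 279 of them (82.8%, against 36.5% of all 15193 genes) and both below for 18 (against 35.8%). The median log2 ratio over 12AF was 2.19 in 10AF and 1.09 in 11AF, in the order of their marker shares. All 3 KO libraries were above all 3 A537T libraries for 262 (77.7%, against 12.2% of all genes) and below for 4 (against 15.4%), and without 15AF, in which Sbp and Spink1 were at only 38.9 and 6.5 CPM, for 264 (against 14.9% of all genes). KO and A537T also differ in genotype here and come from separate tables.

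Of the 1479 lower genes 1459 passed the filter at 10 weeks. The WT libraries 10AF and 11AF were both below 12AF for 681 (46.7%, against 35.8% of all genes) and both above for 262 (against 36.5%), and the KO libraries below all A537T libraries for 637 (43.7%, against 15.4%). Without 15AF the last count was 686 (against 19.0%). Hoxb13 was at 104 (10AF), 255 (11AF) and 210 (12AF) in WT, 61.6 to 113 in KO and 160 to 239 in A537T. Spink5 was at 342 (10AF), 1299 (11AF) and 1568 (12AF) in WT, 6.5 (15AF) to 587 (14AF) in KO and 1030 to 1205 in A537T. Skeletal muscle genes also varied at this age, from a summed 13640 (10AF) to 59290 (12AF) in WT, 209 (13AF) to 7679 (14AF) in KO and 4366 (18AF) to 15430 (16AF) in A537T, and their part in these counts was not tested. Pou3f3 was at 30.6 (10AF) and 11.8 (11AF) with no read in 12AF, at 41.5 to 62.8 in KO and at 0.358 to 2.48 in A537T, and Cdo1 at 723, 280 and 21.25 in WT, 1099 to 1591 in KO and 42.9 to 82.5 in A537T. For both genes the order of the 9 libraries was that of Svs2.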

How the data were processed

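Per the study's methods, the authors trimmed the reads (Trim Galore 0.4.1, cutadapt 1.18), aligned them with STAR 2.7.3a to GRCm38.p6 (nuclear mitochondrial sequences masked), quantified genes with Salmon and divided the counts by DESeq2 1.26 size factors within tables of 6 libraries. The deposited values are therefore a signal, namely estimated gene counts over 1 size factor per library. Deposited tables of comparisons hold the authors' fold changes and were not used. Columns were assigned to genotype and age, without replicate, and p-values measure only the spread between these mice.

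Whole reads were recovered as multiples of the smallest step of each column, with at least 99.9964% of values whole within 0.1. For 3AF, 7AF and 18AF the value of a single read is within 2% of 1, so the automatic check of steps does not apply there. No count test was run, since the groups were made from the readout. Libraries held 6569642 to 11225281 recovered reads. Recovered WT reads differed between the 2 tables of 30 weeks for 53.6 to 56.0% of genes. With genes of few reads left out, the median difference was 0.0184 to 0.0192 on the log2 scale. The 99th percentile was 0.246 to 0.25 and the largest difference 0.707 to 0.848.

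CPM (reads per 1000000 reads) used TMM factors (edgeR 4.0.16, R 4.3.3) over the 9 libraries of an age. Genes with a mean of at least 10 normalised reads entered. A group with no read was set to 3 reads. Intervals (95%) cover counting error only, and those beside ratios are for reads pooled over each group. Marker shares were tested by exact permutation (scipy 1.17.1). The rule for calling a gene at least 4-fold higher or lower was checked on simulated data. Positions are from GENCODE vM21 and upstream sequences from RefSeq, aligned with Biopython 1.88. Of 55469 entries 55107 IDs matched after dropping versions.

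Members and gene lists were chosen with earlier results of these data known. Named genes are the markers, Elac2, all secretory list members, the 3 most abundant members of other lists, the 20 largest and 20 smallest ratios without overlap at 20 or more CPM, and the 5 genes most like the markers. The lists cover seminal vesicle and prostate secretion, Wolffian duct and prostate regulators, androgen-regulated genes, protein secretion, polyamines, citrate and zinc, mitochondrial mRNAs, and luminal, basal, smooth muscle, fibroblast, skeletal muscle, urothelial, epididymal, adipocyte, endothelial, plasma and B cell, macrophage and T cell markers. Other named list members, and Cdo1, Pfkfb3, Plau, Defb42, Cd52, Ptgs2, Elf5, Cyp4a12a, Ccnd1, Slpi and Sdc4, were chosen after their values were seen. Alternatives were median-of-ratios factors, total reads with and without the seminal vesicle list, other filters and folds, the WT columns of the A537T table, A537T rescaled per gene and leaving out each library. Each table alone was added after seeing the data. Some genes are not reported here.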

Additional observations from a re-analysis of the deposited data

Results flagged for a closer look

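Of 105 named genes that passed the filter on low reads, 17 were flagged because the high libraries lay on opposite sides of the low library in KO and in A537T. Over all genes that passed, 2486 (16.8%) did so, and the difference between the genotypes was not tested, since each genotype has 1 low library. Values are the log2 ratio in KO minus that in A537T. Higher in KO and lower in A537T were 9530053A07Rik (13.75), Tgm4 (10.83), Pbsn (4.58), Msmb (2.22), the plasma cell genes Igkc (2.12) and Ighm (1.90), Derl3 (1.57), the estrogen receptor gene Esr1 (1.03), the basal keratin gene Krt15 (0.88) and the fibroblast gene Dcn (0.33). Lower in KO and higher in A537T were the adipocyte genes Cfd (-8.67), Adipoq (-8.29) and Fabp4 (-5.97), the skeletal myosin gene Myh4 (-4.20), Adam7 (-1.26) and the mitochondrial genes mt-Co3 (-0.45) and mt-Co1 (-0.21).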

How the results depend on the processing

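Over 104 alternative values of the main counts and shares, 21 counts moved by over 1.5 times and none reversed. With a filter of 100 reads, 925 genes were higher without overlap and 107 by at least 4-fold. With no filter, 632 genes were at least 4-fold higher and 10 at least 4-fold lower. At 2-fold, 780 were higher and 118 lower. Scaling to total reads gave 1 gene at least 4-fold lower, and 1299 higher and 1935 lower genes without overlap. Chosen after seeing the data, libraries of the KO table alone gave 2690 higher, 2591 lower and 18 at least 4-fold lower genes, and those of the A537T table alone 2848, 2820 and 33, with fewer libraries to separate. Leaving out 1 library at a time gave 1837 to 2085 higher genes, 1596 to 1903 lower genes, 336 to 411 at least 4-fold higher and 0 to 8 at least 4-fold lower, the 8 without 8AF. The difference in marker share ranged from 3.06 to 7.19 percentage points (KO, 30 weeks), 3.47 to 7.87 (A537T, 30 weeks), 5.35 to 7.63 (KO, 10 weeks) and -2.87 to -0.68 (A537T, 10 weeks). It moved by over 1.5 times without 4AF (3.06), 8AF (7.87), 9AF (3.47), 10AF (-0.68) and 12AF (-2.87). Among named genes and lists 2608 values stayed and 71 moved, none reversed. No paired analysis was possible because the columns carry no replicate numbers. Depth limits ratios of genes with few reads in the low libraries.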
